A study of Mus musculus with 8 samples.

Results

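The semaphorin system of the dorsal root ganglia (DRG) was examined, that is the semaphorin ligands and their plexin and neuropilin receptors. Members were taken by gene symbol (Sema3a to Sema3g, the class 4 to class 7 semaphorins, all plexins, Nrp1 and Nrp2), which gave 31 of the 55414 listed genes: 20 ligands and 11 receptors, the latter made up of 9 plexins and 2 neuropilins. The rule used symbols only, though earlier results of these data were known when it was set.

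Transcripts were measured by bulk RNA-seq in DRG of mouse embryos at E18.5, in 4 libraries of AD1 OE embryos and 4 of Control embryos. AD1 OE embryos were AdvillinCre/+;Rosa26Dach1/+ and carried Cre at 1 Advillin allele together with a Dach1-IRES-EGFP copy at Rosa26, held silent by a stop cassette until Cre excises it. The Control genotype was Advillin+/+;Rosa26Dach1/+, so both groups had the Rosa26 copy and only AD1 OE carried Cre. Advillin drives Cre in somatosensory neurons and not in the glia, vessels and connective tissue that share the ganglion, the Rosa26Dach1 line is on a mixed C57Bl/6J and CD1 background, and AD1 OE pups die around birth. The comparison asks which transcripts differ when Dach1, a transcription factor that is normally lost from most sensory neurons, is expressed in all of them. Cre and the changed Advillin allele were present in the same libraries as the added Dach1. Differences that go with Cre, with the Advillin allele or with Dach1 therefore cannot be told apart here.

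The libraries held 22339059 to 44025625 counts, and levels are given as CPM, counts relative to 1e6 of the TMM-scaled library size. Dach1 was at 91.5 to 102 CPM in AD1 OE and at 30.2 to 33.7 CPM in Control, and Avil, whose allele carries the Cre, was at 450 to 478 and 840.4 to 919 CPM, so the labels held in all 8 libraries. Sex was unbalanced: 3 AD1 OE libraries carried Y-linked transcripts and 1 carried Xist, against 1 and 3 in Control. Of the 9 sensory neuron markers edgeR, DESeq2 and limma-voom each called 0 (2 reached an unadjusted edgeR p under 0.05), and their summed level was 7584 to 8244 CPM in AD1 OE and 7960 to 8228 CPM in Control. Of the 9 nociceptor markers 5 were called lower (Scn10a, Calca, Tac1, Mrgprd and Gfra2), against 1.78% of all genes tested. Scn11a and P2rx3 lay higher in every AD1 OE library without being called (log2 fold changes 0.21 and 0.16). Trpv1 and Prdm12 overlapped (-0.12 and 0.09). The 9 markers summed to 2514 to 2745 CPM against 3167 to 3539 CPM for Control, without overlap. Mean sums were 2600 against 3360 CPM, of which Scn10a alone held 781 and 1387 CPM. None of the markers of glia (8), endothelium (8), fibroblasts and meninges (6), macrophages (6), skeletal muscle (6), erythroid cells (4) or spinal cord (12) were called by edgeR, DESeq2 or limma-voom. Of the muscle markers 5 passed the filter on low counts. An unadjusted edgeR p under 0.05 was reached by 2 of the glial, 4 of the fibroblast, 2 of the macrophage, 3 of the spinal cord and 0 of the endothelial, muscle and erythroid markers. Over all genes tested, 18.6% reached it. The 4 fibroblast markers were Col1a2, Col3a1, Pdgfra and Dcn, with log2 fold changes of 0.19, 0.16, 0.23 and -0.15. For Pdgfra the edgeR adjusted p was 0.0232. All 6 fibroblast markers summed to 5777 to 6542 CPM in AD1 OE and 4947 to 6065 CPM in Control, with overlap. Summed spinal cord markers, of which 8 passed the filter on low counts, ranged from 5.39 to 10.3 CPM in AD1 OE and from 4.77 to 28.4 CPM in Control, with the highest values in Control replicates 1 and 4.

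Semaphorins are secreted or membrane-bound proteins that steer growing axons, most often by repulsion, and plexins are the receptors that pass the signal on through a GTPase-activating domain in the cell. The secreted class 3 semaphorins mostly need a neuropilin, which binds the ligand but has little signalling tail of its own, in a complex with a class A plexin. Class 4 ligands are best known to act on class B plexins and class 6 ligands on class A plexins, whereas Sema3e can bind Plxnd1 directly and Sema7a binds Plxnc1 and integrins. In the DRG, Sema3a is known to repel the axons of nociceptors through Nrp1 and class A plexins, with Plxna4 among them, and semaphorin signals also sort the central branches of sensory axons in the spinal cord.

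All 31 members were present at levels that the counts resolve well. The lowest count of any member in any library was 176, for Sema3a, and the highest was 17580, for Plxna4, and all 31 passed the filter on low counts. Levels were compared between genes per kilobase of exon, using the union of annotated exons. In Control, Sema4f stood highest at 56.9 ± 2.42 CPM per kilobase (SD, n = 4), followed by Plxnd1 at 39.9 ± 0.602, Plxna3 at 24.7 ± 0.957, Nrp1 at 21.1 ± 0.704 and Plxna4 at 20.1 ± 1.56. The 4 Control libraries of Sema4f, Plxnd1 and Plxna3 each lay above all libraries of the next gene in the order, whereas Nrp1 overlapped with Plxna4, and Plxna4 with Plxnb2 (19.0 ± 0.707). Sema3a was lowest at 0.533 ± 0.0293 CPM per kilobase, below Sema3e at 2.36 ± 0.116. A gene lay clear of the next one in all 4 libraries at 10 of the 30 steps of the order in Control and at 8 in AD1 OE. In AD1 OE, Plxna4 stood next after Plxnd1, at 26.8 ± 0.974 CPM per kilobase, and overlapped with Plxna3 at a mean of 26.2.

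**Figure D1:**
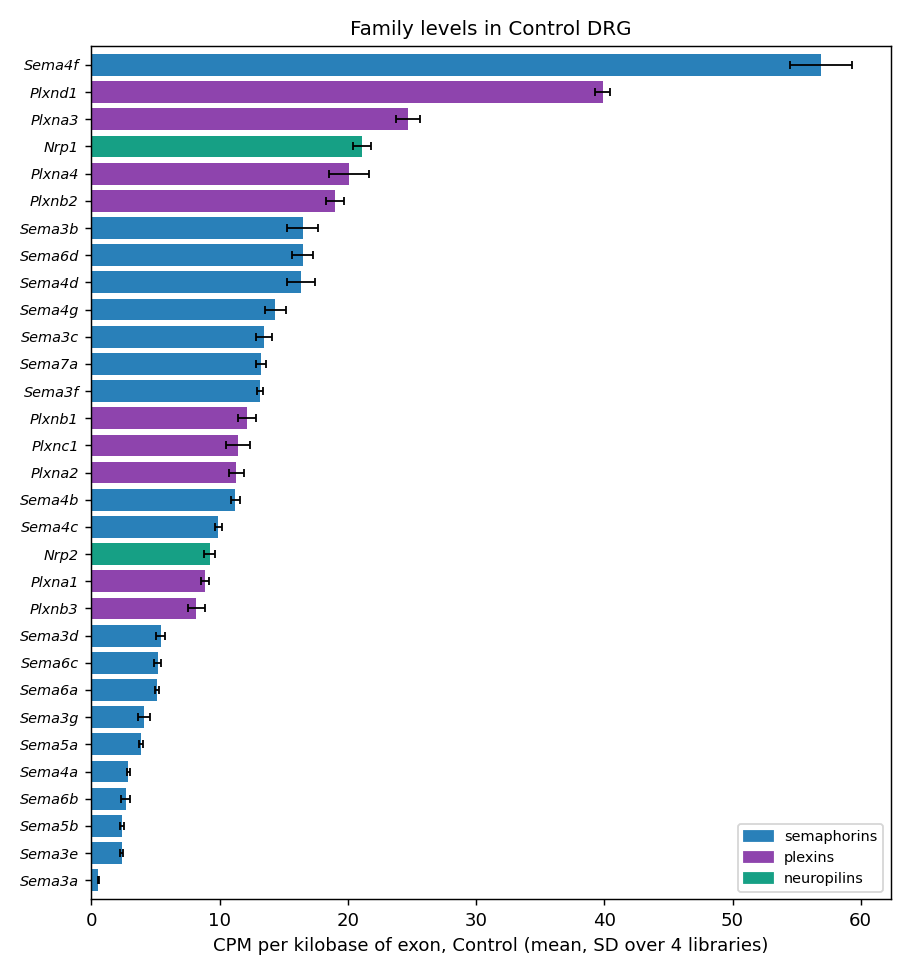
Levels of the 31 members in Control DRG, in CPM per kilobase of exon on a linear axis, as means with the SD over 4 libraries, sorted from high to low and coloured by ligand, plexin or neuropilin. Sema4f and Plxnd1 lead, and Sema3a closes the order at 0.533 CPM per kilobase.

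Of the 31 members, 3 were called between AD1 OE and Control. A call needs an adjusted p below 0.005 together with a log2 fold change beyond 0.25 in either direction, the limits the study set here (edgeR quasi-likelihood test, Benjamini-Hochberg adjustment over all genes tested). Across all 17721 genes tested, 2.57% were called, 1.78% as lower and 0.784% as higher. Among the receptors, Plxnc1 and Plxna4 rose. Among the ligands, Sema4b fell. Plxnd1, Sema3e and Sema4g had an adjusted p under 0.05 without being called, so that 6 members passed that limit, 3 of them higher and 3 lower, against 6.55% of all genes tested (2.42% higher and 4.14% lower). The groups did not overlap for 7 members, these 6 and Sema7a, with AD1 OE above for 4 and below for 3. Of all genes tested, 13.0% did not overlap, 5.69% with AD1 OE above and 7.26% below. An unadjusted p under 0.05 was reached by 10 members and by 18.6% of all genes tested. The median log2 fold change stood at 0.003 over the 20 ligands, 0.07 over the 11 receptors and 0.002 over all genes tested. In ganglia taken whole, fewer cells of a type and less RNA per cell cannot be told apart.

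**Figure D2:**
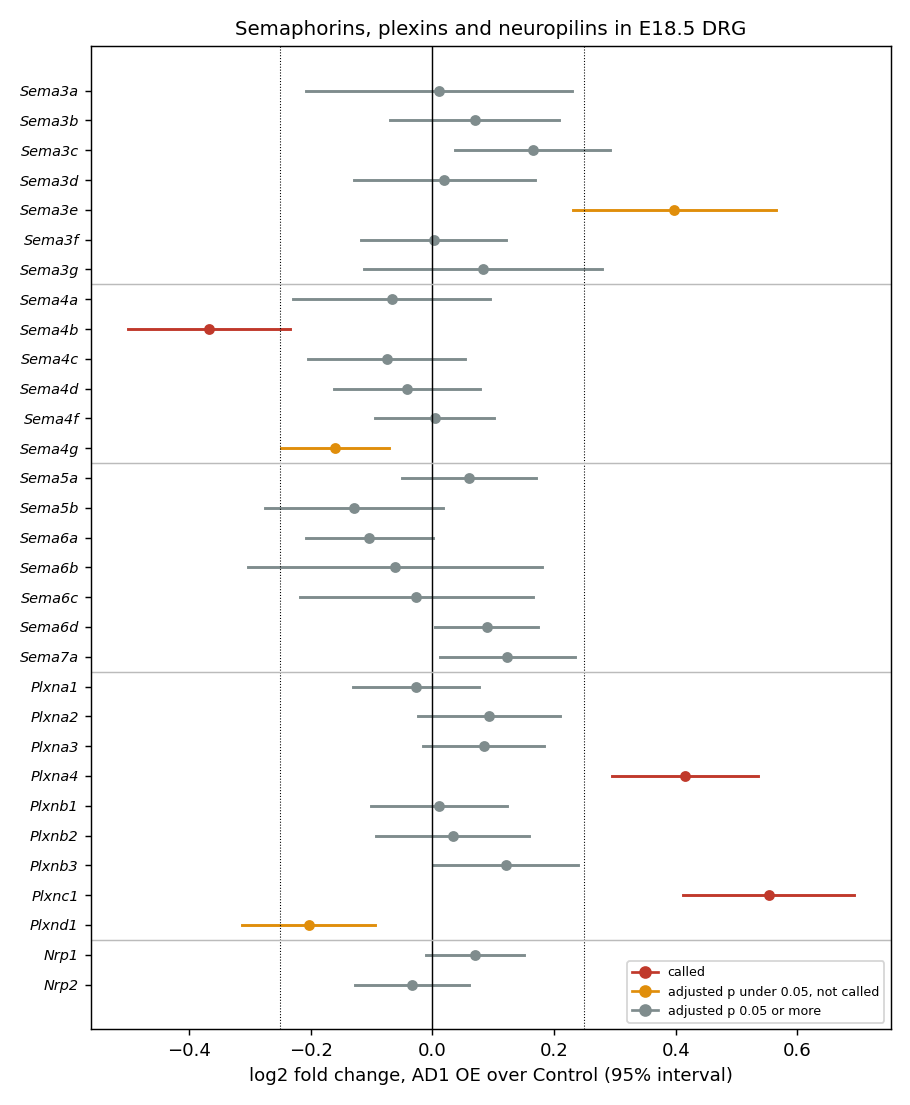
log2 fold change of each member, AD1 OE over Control, with its 95% interval from the edgeR fit, grouped from top to bottom as class 3, class 4 and class 5 to 7 semaphorins, plexins and neuropilins. Dotted lines mark the fold limit of 0.25. Plxnc1 and Plxna4 lie to the right, Sema4b to the left, and most other intervals stay between the dotted lines.

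The receptors are given first. Plxnc1 (ENSMUSG00000074785, chromosome 10), the receptor of Sema7a, was at 139, 149.6, 125 and 147 CPM in AD1 OE replicates 1 to 4 and at 86.2, 99.9, 92.4 and 103 CPM in Control replicates 1 to 4. Every AD1 OE library lay above every Control library. The means were 140.2 ± 10.9 and 95.4 ± 7.60 CPM (SD, n = 4 each), a 1.47-fold difference with a log2 fold change of 0.55, a standard error of 0.06 and a 95% interval of 0.41 to 0.69 (edgeR adjusted p = 2.30e-04). Plxnc1 was called in all 17 alternative fits, with log2 fold changes of 0.45 to 0.61. Among libraries with Xist, the AD1 OE library was at 125 CPM and the 3 Control libraries averaged 92.9 CPM. Among libraries with Y-linked transcripts, the 3 AD1 OE libraries averaged 145 CPM and the Control library was at 103 CPM. Both differences are given without a test, since each sex had 1 library on 1 side.

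Plxna4 (ENSMUSG00000029765, chromosome 6), one of the class A plexins through which Sema3a and class 6 ligands act on sensory axons, was at 397, 379, 367 and 369.7 CPM in AD1 OE replicates 1 to 4. In Control replicates 1 to 4 it was at 270.0, 316, 272 and 277 CPM, so the groups did not overlap and Control replicate 2 stood above the other Control libraries. The means were 378 ± 13.7 and 284 ± 22.0 CPM, with a log2 fold change of 0.42, a standard error of 0.06 and a 95% interval of 0.29 to 0.54 (edgeR adjusted p = 6.09e-04). The call held in each fit without 1 library (log2 fold change 0.39 to 0.47) and with sex in the model. It was lost when the 2 Control libraries with the most spinal cord markers, replicates 1 and 4, were both left out (log2 fold change 0.37, adjusted p 0.0136). That fit kept 2 Control libraries, and the standard error of Plxna4 in it was 0.068. Over all genes it called 254, against 455 in the main fit. Within a sex, the AD1 OE library with Xist was at 367 CPM against a Control mean of 286 CPM, and the AD1 OE libraries with Y-linked transcripts averaged 382 CPM against 277 CPM in the Control library.

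The other class A plexins did not move with it past the test. Plxna1, Plxna2 and Plxna3 had log2 fold changes of -0.03, 0.09 and 0.08, with edgeR adjusted p-values of 0.824, 0.393 and 0.355. Because the genes of a class are counted in the same library, their shares do not depend on how libraries are scaled. Plxna4 made up 43.4, 45.0, 43.2 and 42.3% of class A plexin counts in AD1 OE and 37.2, 40.0, 36.9 and 36.5% in Control. Plxnc1 made up 7.87 to 9.83% of all plexin counts in AD1 OE and 6.10 to 6.94% in Control. These shares show unequal change within the family and carry no test of their own.

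Plxnd1 (ENSMUSG00000030123, chromosome 6), the direct receptor of Sema3e and known from blood vessels as well as from sensory and motor neurons, was the most abundant plexin per length in Control. It was at 247, 231, 274 and 259.6 CPM in AD1 OE replicates 1 to 4 and at 287, 296, 288 and 293 CPM in Control replicates 1 to 4. The AD1 OE libraries were all lower and more spread (253 ± 18.4 CPM) than the Control libraries (291 ± 4.39 CPM). Its log2 fold change of -0.20 had a 95% interval of -0.31 to -0.09 (edgeR adjusted p = 0.0319), and was short of both limits of a call. The adjusted p ranged from 0.00865 to 0.103 in the fits without 1 library, was under 0.05 only without AD1 OE replicate 3, and was 0.159 with the sex score in the model. The share of Plxnd1 among plexin counts was 15.1 to 17.2% in AD1 OE and 19.7 to 20.3% in Control. The summed plexins were higher in AD1 OE, at a mean of 1588 CPM against 1455 CPM in Control. The share of Plxnd1 thus also carries the rise of Plxna4 and Plxnc1, while its own mean level was 86.9% of Control. The endothelial markers (8 of 8 tested) summed to 323 to 384 CPM in AD1 OE and 339 to 347 CPM in Control, with overlap. Whether the amount of vessel tissue enters the level of Plxnd1 was not tested.

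The class B plexins, best known as receptors of class 4 semaphorins, had log2 fold changes of 0.01 for Plxnb1, 0.03 for Plxnb2 and 0.12 for Plxnb3, and none of the 3 had an edgeR adjusted p under 0.05. Plxnb3 and Plxna3 lie on the X chromosome, where the unbalanced sexes could enter. Plxnb3 was at 56.0 to 59.3 CPM in AD1 OE and 48.7 to 56.7 CPM in Control, and its groups overlapped. The neuropilins were also close between the groups. Nrp1, the ligand-binding partner for Sema3a and also a receptor for VEGF, was at 221, 223, 210.4 and 213 CPM in AD1 OE and 197, 212, 210.4 and 207 CPM in Control, with a log2 fold change of 0.07 and a 95% interval of -0.01 to 0.15. Nrp2, which prefers Sema3f, was at 107 ± 4.64 and 109 ± 5.08 CPM, a log2 fold change of -0.03 with an interval of -0.13 to 0.06. Of the 2 neuropilins edgeR, DESeq2 and limma-voom called 0, and 0 reached an unadjusted edgeR p under 0.05. For all 8 receptors with an adjusted p of 0.05 or more, the 95% interval stayed inside the fold limit of 0.25 on both sides.

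**Figure D3:**
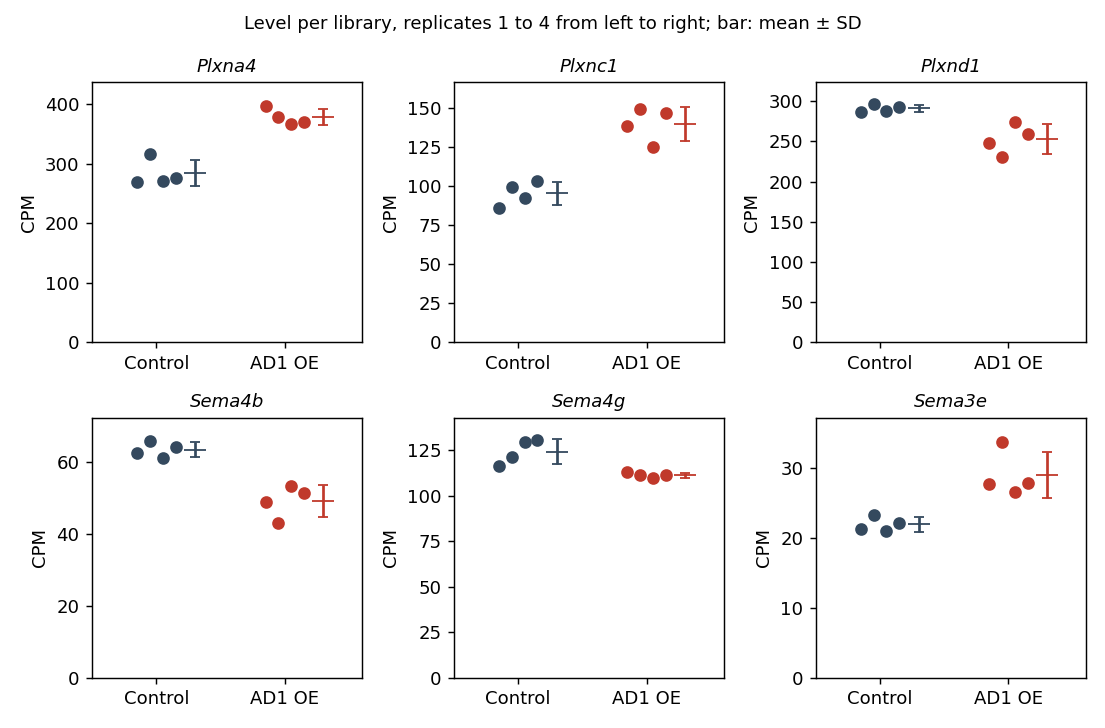
Level in CPM of the 6 members with an adjusted p under 0.05, 1 point per library for replicates 1 to 4 from left to right, with the mean and SD beside them and axes that start at 0. The groups do not overlap in any panel, Plxna4, Plxnc1 and Sema3e lie higher in AD1 OE, and Plxnd1, Sema4b and Sema4g lie lower.

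Among the ligands, Sema4b (ENSMUSG00000030539, chromosome 7), a membrane-bound class 4 semaphorin, was at 48.9, 42.9, 53.4 and 51.2 CPM in AD1 OE replicates 1 to 4 and at 62.5, 65.8, 61.1 and 64.1 CPM in Control replicates 1 to 4. All AD1 OE libraries were lower, with AD1 OE replicate 2 the lowest. The means were 49.1 ± 4.51 and 63.4 ± 1.99 CPM, which puts AD1 OE at 77.5% of the Control level, with a log2 fold change of -0.37, a standard error of 0.06 and a 95% interval of -0.50 to -0.23 (edgeR adjusted p = 0.00293). The direction held throughout, but the call was close to the limit. It was kept without AD1 OE replicate 2 or 3 (adjusted p 0.00274 and 0.00171) and lost without AD1 OE replicate 1 or 4 or any 1 of Control replicates 1 to 4, where the adjusted p was 0.00665 to 0.0135. It was also lost with the sex score in the model (-0.33, adjusted p 0.0176). The AD1 OE library with Xist was at 53.4 CPM against a Control mean of 63.1 CPM, and those with Y-linked transcripts averaged 47.7 CPM against 64.1 CPM. Sema4b made up 7.02 to 8.02% of class 4 counts in AD1 OE and 9.18 to 9.65% in Control.

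The other class 4 members lay between the log2 fold changes of -0.16 for Sema4g and 0.004 for Sema4f. Sema4g was at 113, 111, 109.5 and 111 CPM in AD1 OE replicates 1 to 4 and at 116, 121, 129.6 and 130.3 CPM in Control replicates 1 to 4, lower in every AD1 OE library (edgeR adjusted p = 0.0362). Its adjusted p was above 0.05 in 7 of the 8 fits without 1 library, up to 0.132 without Control replicate 4, and its share of class 4 counts overlapped between the groups (16.2 to 18.2% and 17.3 to 19.5%). Sema4f, the most abundant member per length, was at 303, 289.9, 319 and 296 CPM in AD1 OE and 289, 318, 294 and 304 CPM in Control, and the groups covered nearly the same range (95% interval of the log2 fold change -0.09 to 0.10). Sema4d, the classic ligand of Plxnb1, was at 122 ± 7.91 and 125 ± 8.28 CPM (log2 fold change -0.04). Sema4a and Sema4c had log2 fold changes of -0.07 and -0.08.

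Of the 7 secreted class 3 semaphorins, edgeR and limma-voom called 0, 2 had an unadjusted edgeR p under 0.05, and DESeq2 called 1, Sema3e. Over all genes DESeq2 called 660 (227 higher), against 455 (139 higher) in the main edgeR fit. Sema3e (ENSMUSG00000063531, chromosome 5), the ligand of Plxnd1, was at 27.6, 33.7, 26.5 and 27.8 CPM in AD1 OE replicates 1 to 4 and at 21.2, 23.3, 20.9 and 22.1 CPM in Control replicates 1 to 4. Every AD1 OE library was higher, and AD1 OE replicate 2 stood above the other 3. It gave a log2 fold change of 0.40, a standard error of 0.08 and a 95% interval of 0.23 to 0.56, and the edgeR adjusted p of 0.00781 was above the limit of 0.005. It was called without AD1 OE replicate 3 (adjusted p 0.00422), under DESeq2 (adjusted p 5.46e-05), without the filter on low counts and with the replicate block, and its adjusted p was 0.0522 with the sex score in the model. Its share of class 3 counts was 7.97 ± 0.549% in AD1 OE and 6.48 ± 0.407% in Control, without overlap. The values of this ligand and of its receptor Plxnd1 stood on opposite sides of Control.

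Sema3c, a ligand of both neuropilins, averaged 108 ± 9.51 CPM in AD1 OE against 96.3 ± 4.46 CPM for Control (log2 fold change 0.17, edgeR adjusted p = 0.139), and its libraries overlapped. Sema3b, the most abundant class 3 member per length, was at 81.1, 90.8, 84.0 and 74.7 CPM in AD1 OE and 87.0, 75.4, 74.1 and 78.5 CPM in Control, also with overlap. Sema3a, the repellent of nociceptor axons, was low in both groups at 7.49 ± 0.980 and 7.39 ± 0.406 CPM, and its log2 fold change of 0.01 had an interval of -0.21 to 0.23. Sema3f, the ligand of Nrp2, was at 68.4 ± 5.64 and 68.3 ± 1.33 CPM. Sema3d and Sema3g had log2 fold changes of 0.02 and 0.08.

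Of the 7 members of classes 5 to 7, 0 were called by edgeR, DESeq2 or limma-voom, and 2 had an unadjusted edgeR p under 0.05. These were Sema7a and Sema6d. Sema7a, a lipid-anchored semaphorin and the ligand of Plxnc1, was at 45.1, 48.4, 51.0 and 45.4 CPM in AD1 OE replicates 1 to 4 and at 43.5, 43.9, 41.8 and 44.9 CPM in Control replicates 1 to 4. Its AD1 OE libraries lay just above the Control libraries, with a log2 fold change of 0.12 and an interval of 0.01 to 0.23 (edgeR adjusted p = 0.214). Sema6d, a transmembrane ligand of class A plexins and the most abundant of these classes per length, was at 187, 187, 180.3 and 186 CPM in AD1 OE and at 162, 172, 182 and 179 CPM in Control, with overlapping groups (log2 fold change 0.09, edgeR adjusted p = 0.240). The rest, Sema5a, Sema5b, Sema6a, Sema6b and Sema6c, lay between log2 fold changes of -0.13 and 0.06. For 13 of the 17 ligands with an adjusted p of 0.05 or more, the 95% interval stayed inside the fold limit of 0.25. The intervals of Sema3c, Sema3g, Sema5b and Sema6b reached past it, to 0.29, 0.28, -0.27 and -0.30, so these intervals include changes of the size of a call.

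**Figure D4:**
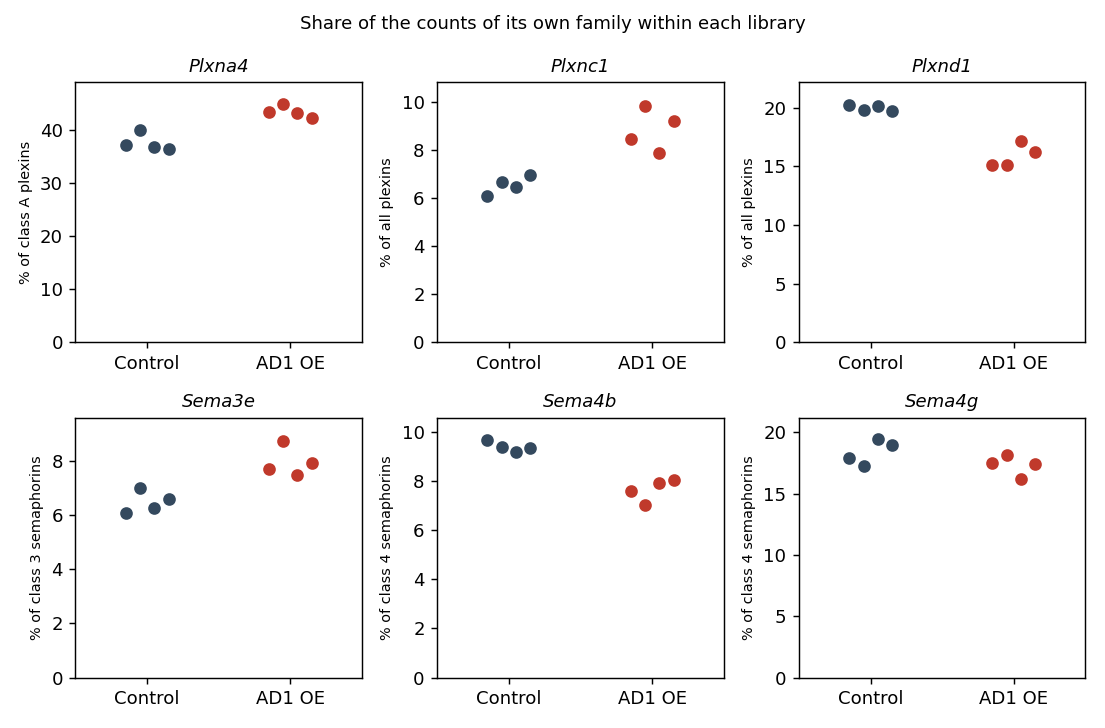
Share of the counts of its own family that a gene makes up within each library, in percent on axes that start at 0, with 1 point per library. The shares of Plxna4, Plxnc1 and Sema3e are higher and those of Plxnd1 and Sema4b lower in all 4 AD1 OE libraries, while those of Sema4g overlap. A share also changes when other genes of its family change, as Plxna4 and Plxnc1 did beside Plxnd1.

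The sequence just upstream of the start is shown for the called members, since their transcript level is the measure that differed. It comes from RefSeq on GRCm38.p6, whereas the counts were made on GRCm39, and 26 of the 31 members had an entry and Plxna4 had none. The 250 bases before the start are printed 5′ to 3′ in the direction of transcription, at chr10:94944846-94945095 for Plxnc1 (minus strand) and at chr7:80186620-80186869 and chr7:80198338-80198587 for the upstream and downstream start of Sema4b (plus strand). Capitals mark GC boxes, GGGCGG on either strand.
Plxnc1: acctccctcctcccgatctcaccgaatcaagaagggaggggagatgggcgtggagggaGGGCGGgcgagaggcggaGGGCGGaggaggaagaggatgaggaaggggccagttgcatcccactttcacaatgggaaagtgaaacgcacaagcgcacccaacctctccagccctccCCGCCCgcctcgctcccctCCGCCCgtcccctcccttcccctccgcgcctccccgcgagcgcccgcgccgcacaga
Sema4b, upstream start: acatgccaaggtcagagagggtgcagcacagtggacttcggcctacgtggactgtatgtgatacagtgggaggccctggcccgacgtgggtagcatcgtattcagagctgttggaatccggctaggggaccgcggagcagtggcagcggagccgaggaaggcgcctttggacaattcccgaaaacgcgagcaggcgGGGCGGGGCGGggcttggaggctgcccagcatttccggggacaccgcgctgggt
Sema4b, downstream start: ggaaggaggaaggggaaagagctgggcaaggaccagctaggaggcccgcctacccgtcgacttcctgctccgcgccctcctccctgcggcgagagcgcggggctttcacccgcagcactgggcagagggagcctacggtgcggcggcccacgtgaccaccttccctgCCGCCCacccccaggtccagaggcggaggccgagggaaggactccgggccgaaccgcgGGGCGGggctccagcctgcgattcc
Plxnc1 held 4 GC boxes, and each start of Sema4b held 2, which overlap by 1 base at the upstream start. The GC content was 68.8% for Plxnc1 and 64.4 and 72.4% for the Sema4b starts, against a median of 52.4% over all 32851 RefSeq starts. GC boxes stood in 27 of the 37 member starts and in 32.7% of all starts. On either strand, the 3 printed stretches held no TATA box (spelled TATAAA), which 12.4% of all starts held, and no CCAAT box, which 33.8% held. They also held no forkhead core, spelled TGTTTAC, which 3.17% of all starts held. An E-box, CANNTG, stood once in Plxnc1 and once at the downstream start of Sema4b, against 66.2% of all starts with at least 1. Such matches describe the letters only.

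Proteins that work with the receptors were examined as a list of 50 genes, of which 49 passed the filter on low counts, all but Timd2. In the edgeR test 1 was lower and 0 were higher, with 12 under an unadjusted p of 0.05, and DESeq2 and limma-voom called the same number. The called gene was Chl1, a cell adhesion molecule of the L1 family that joins Nrp1 in the receptor for Sema3a. It was at 159, 169, 139 and 179 CPM in AD1 OE replicates 1 to 4 and at 263, 286, 289.9 and 280.1 CPM in Control replicates 1 to 4. Chl1 fell in every AD1 OE library, with a log2 fold change of -0.79, a standard error of 0.07 and an adjusted p of 1.75e-05. The related L1cam and Nrcam were not called (log2 fold changes -0.03 and 0.04). The median of the 49 genes was -0.04, with values above 0 for 17 and below 0 for 32. Over all 17721 genes tested, 2.57% were called and 18.6% had an unadjusted edgeR p under 0.05. Their median was 0.002, with values above 0 for 8956 and below 0 for 8765.

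The next 5 partners in order of p were Pak1, Crmp1, Limk1, Cdk5 and Fyn, none of them called. Pak1, a kinase below Rac, was at 91.0, 94.5, 94.1 and 93.3 CPM in AD1 OE and at 103, 103.7, 103.5 and 105.5 CPM in Control (log2 fold change -0.16, edgeR adjusted p = 0.00764). Limk1, which Pak1 activates and which inactivates cofilin, had a log2 fold change of -0.17 (adjusted p 0.0336). Crmp1, a cytosolic mediator of Sema3a signals, had a log2 fold change of -0.23 (adjusted p 0.0264). Cdk5 and Fyn, kinases that act on plexin and CRMP proteins, had log2 fold changes of -0.15 and -0.13 (adjusted p 0.0391 and 0.0821). Over all 49 partners tested, 9 had AD1 OE libraries all below the Control libraries and 0 all above. Of all genes tested, 7.26% lay below and 5.69% above in this way. Of these partners, 5 were among the 9 kinases and adaptors, with log2 fold changes all under the fold limit of a call. The others were 1 of 12 co-receptors and surface partners, 1 of 5 CRMP genes and 2 of 16 GTPases and regulators. The MICAL genes and other neuropilin ligands had 0. The list was chosen with earlier results known. Of the 16 GTPases and regulators 0 were called by edgeR, DESeq2 or limma-voom, with 4 under an unadjusted edgeR p of 0.05. The CRMP family (5 genes), the MICAL oxidoreductases (3) and other ligands of neuropilins (4) also had 0 called by each tool, with 1, 0 and 1 under an unadjusted edgeR p of 0.05.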

How the data were processed

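RNA of dissected DRG was made into stranded mRNA libraries with an Illumina kit. With STAR 2.7.8a the authors aligned the reads to GRCm39, counted them per Ensembl gene with featureCounts 2.0.1 and deposited raw counts, 1 file per library, without filter or normalization. Whether counting used strand is not stated, so reads of Plxna1, Plxna4, Plxnb1 and Sema4c, which overlap an antisense gene, could be shared, and Plxnc1 shares 1.4% of its exon bases with Gm48718 on its own strand. Ensembl IDs were named through GENCODE M21 (GRCm38), which also gave exon lengths and chromosomes. The 8 libraries were grouped by their titles, and the study counts separate embryos.

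For the tests, edgeR 4.0.16 (R 4.3.3) was used with filterByExpr (17721 genes kept), TMM scaling and a quasi-likelihood fit on genotype alone, and p-values were adjusted by Benjamini-Hochberg over all tested genes. The standard error was taken as the log2 fold change over the root of F. Alternatives were DESeq2 1.42.0 (the tool of the study), limma-voom 3.58.1, RLE, other filters and thresholds, a replicate block, sex and leaving out each library. A 2-level sex term and the fit without libraries of 12 CPM or more of spinal cord markers were added after seeing the data. Intervals cover the spread between these libraries.

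Members, partner and marker lists and tests were chosen with earlier results of these data known. The text names all members, with values per library for those with an adjusted p under 0.05 and for the most abundant of class 3, class 4, classes 5 to 7, plexins and neuropilins, and the called partners plus the next 5 by p. Values per library of other members were added after their values were seen. Replicates of a group differed by more than counting noise in each of the pairs (chi-square over its degrees of freedom 4.37 to 12.1).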

Additional observations from a re-analysis of the deposited data

Results flagged for a closer look

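Plxna4 in Control replicate 2 was at 316 CPM, apart from the other 3 Control libraries at 270.0 to 277 CPM. The gap to the nearest library was 0.858 of the range of the group, above Dixon's critical value of 0.829 for 4 libraries. Of 62 groups of 4 examined (31 members in 2 groups) this was the only one, where chance would flag about 5%. The library lies towards the AD1 OE values, and without it the log2 fold change of Plxna4 was 0.47.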

How the results depend on the processing

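The count of called receptors was 2 in the main fit and in the alternatives except 3: it was 1 among libraries with little spinal cord RNA (Plxna4 lost), 3 at an adjusted p under 0.05 with no fold limit (Plxnd1 added) and 0 with an absolute log2 fold change over 1. The 1 called ligand was less stable. The count was 2 under DESeq2 and without the filter (Sema3e added), 0 with the sex score, 0 with the 2-level sex term and 0 among libraries with little spinal cord RNA (Sema4b lost), 3 at an adjusted p under 0.05 with no fold limit, 0 with the fold limit of 1, and 0 to 2 in fits without 1 library. Called partners numbered 1 to 2 in fits without 1 library, 5 at an adjusted p under 0.05 and 0 with the fold limit of 1. Over all genes, 455 were called in the main fit, 660 under DESeq2, 747 without the filter and 254 among libraries with little spinal cord RNA. The count was 1161 at an adjusted p under 0.05, 129 with the fold limit of 1, and 289 (without AD1 OE replicate 1) to 420 without 1 library.

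The labels do not state whether same-numbered libraries were paired. Their deviations correlated at -0.0163, -0.0704, -0.0272 and 0.341, and only number 4 matched best with its own number on both sides. Libraries also differed in sex and in spinal cord markers, so these correlations cannot show whether samples were paired. With the replicate block 348 genes were called in all, 2 receptors, 1 partner and 1 ligand, which was Sema3e (adjusted p 0.00429) in place of Sema4b (0.00984). Of 527 member values under alternatives, 512 kept their side of the limits, 11 lost and 4 gained a call, and 0 called values reversed. The sign turned in 40 values of 11 members near 0, Sema3a, Sema3d and Sema3f among them. The cause of these shifts was not tested. At 4 libraries a group, changes well under the fold limit are not resolved for members with the lowest counts. The same holds for some with higher counts, such as Plxnb2 (95% interval of the log2 fold change -0.09 to 0.16).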
